A study of Mus musculus with 2 samples.

Results

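The miR-181 family of the mouse is encoded by 6 hairpins, Mir181a-1, Mir181a-2, Mir181b-1, Mir181b-2, Mir181c and Mir181d. Its members were the small RNA tags (distinct sequences with their read counts) that matched 1 of these hairpins perfectly over their whole length in the GENCODE M21 annotation. The hairpins were 6 of 1174 named miRNA hairpins, and 115 of 1695245 distinct tags belonged to them. The tags were grouped into 10 distinct mature products of 1139, since both copies of miR-181a and both copies of miR-181b give the same 5p miRNA.

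The libraries came from J1 mESCs, an established mouse embryonic stem cell line, grown without feeders on gelatin in serum replacement medium with 1000 U/ml of LIF, the cytokine that maintains self-renewal. The cells received 1 μM PD0325901 (PD), an inhibitor of the kinase MEK that blocks ERK signaling, or the same volume of the solvent DMSO (control) for 24 h, and neither group carried a genetic change named in the labels. The comparison asks which miRNAs respond to the loss of MEK/ERK signaling. RNA from 3 independent experiments was pooled for each treatment, so 1 library stood for each treatment, and the spread between cultures could not be measured.

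The miR-181 miRNAs are known from lymphocytes, where miR-181a sets the sensitivity of the T cell receptor by repressing phosphatases, among them dual specificity phosphatases that switch off ERK. In embryonic stem cells, miR-181 and miR-125 miRNAs are known to repress Cbx7, the Polycomb subunit of the pluripotent state. A miRNA hairpin is cut by Drosha and Dicer into a 5p and a 3p strand, and targets are recognised mainly by the seed, bases 2 to 8 of the mature miRNA.

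The 5p miRNAs all have the seed ACAUUCA and are printed as RefSeq gives them (build GRCm38.p6), because the members differ only outside it. Capitals mark the seed, and positions are counted from 1 at the 5′ end.
miR-181a-5p: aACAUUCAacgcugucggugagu
miR-181b-5p: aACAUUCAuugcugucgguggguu
miR-181c-5p: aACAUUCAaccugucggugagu
miR-181d-5p: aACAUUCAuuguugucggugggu
Within their shared length, miR-181b-5p and miR-181d-5p differ by C12U alone. miR-181a-5p differs from miR-181b-5p by A9U, C10U and A21G, and from miR-181c-5p by an edit distance of 1. Of the 1139 distinct products, 4 had this seed, all of them miR-181.

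The 3p strands are what tells the gene copies apart, and they fall into 4 seeds as RefSeq gives them. The first pair below shares a seed although the hairpins lie on different chromosomes.
miR-181a-1-3p: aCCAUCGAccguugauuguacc
miR-181c-3p: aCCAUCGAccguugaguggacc
miR-181a-2-3p: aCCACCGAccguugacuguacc
miR-181d-3p: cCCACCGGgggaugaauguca
miR-181b-1-3p: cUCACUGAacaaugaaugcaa
miR-181b-2-3p: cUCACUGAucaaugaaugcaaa
From miR-181a-1-3p, miR-181a-2-3p differs by U5C, inside the seed, and by U16C, and miR-181c-3p differs by U16G and U19G. The 3p strands of the miR-181b copies differ by A9U and in length.

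The hairpins lie in 3 pairs on GRCm38. On chromosome 1, Mir181a-1 (chr1:137966455-137966541, plus strand) is followed after 97 nt by Mir181b-1 (chr1:137966639-137966718, plus strand). Mir181b-1 lies wholly in an exon of the lincRNA A430106G13Rik, which overlaps Mir181a-1 by 11 nt, and both lie between exons of the transcript Gm4258. On chromosome 2, Mir181a-2 (chr2:38852735-38852810, plus strand) and Mir181b-2 (chr2:38853830-38853918, plus strand) are 1019 nt apart, on the strand opposite to an intron of Nr6a1, an orphan nuclear receptor gene. On chromosome 8, Mir181c (chr8:84178873-84178961, minus strand) and Mir181d (chr8:84178716-84178787, minus strand) are 85 nt apart in an intron of Nanos3, a gene of germ cell development, on the same strand as the gene.

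Clean reads numbered 18870345 in the control and 20944808 in PD. Levels are reads per 1000000 clean reads (RPM), a scale on which a single read counted 0.0530 and 0.0477. Of these reads, 11.6% and 10.1% matched a miRNA hairpin. The label of the cells was checked against the miR-290-295 cluster, the main miRNA cluster of mouse embryonic stem cells. All 9 of its hairpins had reads, and they summed to 33348 RPM in the control and to 28644 in PD. The cluster of Mir302a, Mir302b, Mir302c, Mir302d and Mir367, also of pluripotent cells, had reads from all 5 hairpins and a higher sum in PD, with 15.2 RPM in the control and 26.7 in PD. All 6 neuronal marker hairpins (miR-124 and miR-9) also had reads, and summed to 278 RPM in the control and to 493 in PD. Within this list miR-124-3p had 255 and 472 RPM, while miR-9-5p had 17.4 and 13.7 RPM. Sums for the other cell types ranged from 2.91 to 209 RPM in the control and from 2.01 to 179 RPM in PD. Of these, 2 of 4 blood hairpins and 1 of 6 fibroblast or mesenchyme hairpins had no reads. The part of other cells in the miR-181 values was not tested, and in bulk RNA fewer cells of a type and less RNA per cell cannot be told apart.

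miR-181d-5p was the main product of the family in J1 mESCs. It had 44939 reads in the control and 41633 in PD, that is 2381 and 1988 RPM. This made it number 13 in the control and number 14 in PD by level among the 499 distinct miRNAs detected (at least 1 RPM in either library). It carried 89.9% (95% Wilson interval 89.6 to 90.1%) of all reads of the 5p products in the control and 90.5% (90.2 to 90.7%) in PD.

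The remaining 5p products were far lower. miR-181c-5p had 2611 reads in the control and 2026 in PD, or 138 and 96.7 RPM. miR-181b-5p had 1460 and 1438 reads, or 77.4 and 68.7 RPM. miR-181a-5p, the form best known from T cells, was the lowest with 991 and 915 reads, or 52.5 and 43.7 RPM. The order d, c, b, a was the same in both libraries, and the 95% counting intervals of neighbours in it did not overlap in either library. Both products of the Nanos3 intron together gave 95.1% of the 5p reads in the control and 94.9% in PD. Intervals here and below cover the counting of reads only, and PCR copies are not independent molecules.

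**Figure D1:**
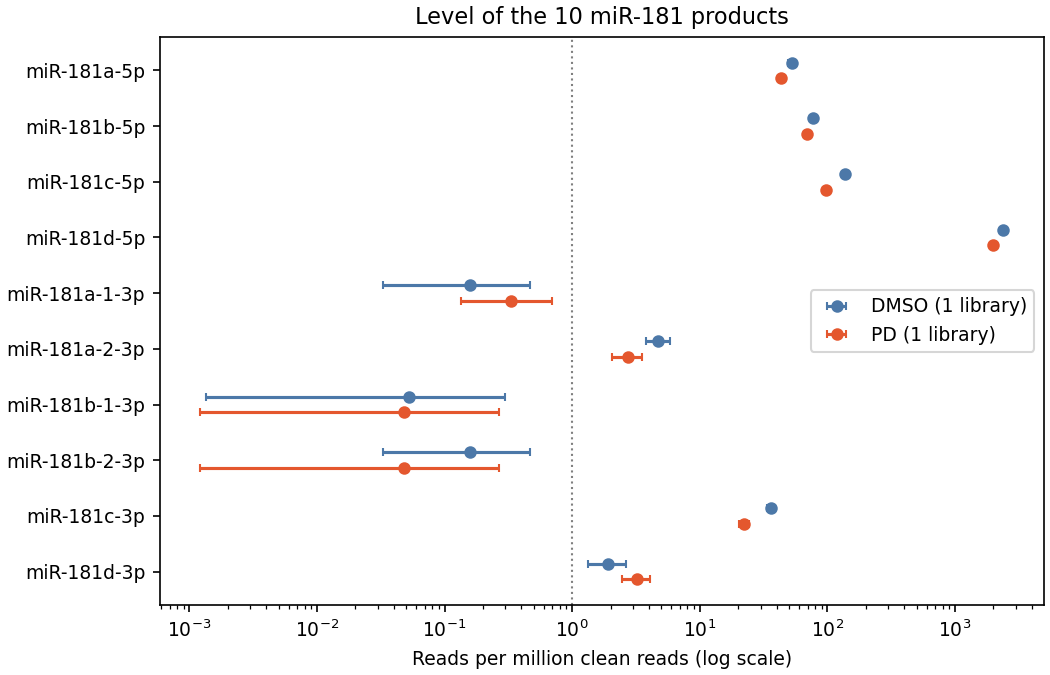
Level of each of the 10 miR-181 products in RPM (log scale) in the control (DMSO) and PD libraries. Points are single libraries, bars are exact 95% counting intervals, and the dotted line is the detection level of 1 RPM. miR-181d-5p stands at 2381 and 1988 RPM, and 3 of the 3p products lie below 1 RPM in both libraries.

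Of the 3p strands, miR-181c-3p was the most frequent, with 685 reads in the control and 467 in PD (36.3 and 22.3 RPM). miR-181a-2-3p had 89 and 57 reads (4.72 and 2.72 RPM). miR-181d-3p, the partner of the leading 5p strand, had only 36 and 67 reads (1.91 and 3.20 RPM). The other 3p strands stayed under 1 RPM in both libraries. miR-181a-1-3p had 3 and 7 reads, miR-181b-1-3p had 1 and 1, and miR-181b-2-3p had 3 and 1.

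The 3p strands also showed from which copy of miR-181a the 3p reads came. In the control, 89 of the 92 copy-specific reads came from Mir181a-2 and 3 from Mir181a-1, and in PD 57 came from Mir181a-2 and 7 from Mir181a-1. The odds of Mir181a-1 were 3.61 times as high in PD as in the control, with a 95% interval of 0.785 to 22.5 (2-sided Fisher's exact test, p = 0.0925), so no shift between the copies was detectable at this depth. All reads of miR-181a-5p itself matched both copies, with 0 specific to 1 of them. For miR-181b the 3p reads were too few to compare the copies. A 25th base of U is templated by Mir181b-2 alone, and tags of miR-181b-5p with it had 179 reads in the control and 191 in PD. The 25-nt tag with the G of Mir181b-1 had 1 and 0 reads. In PD the U tag was 18.2% of the 24-nt tag, and on miR-181d-5p, where a U at base 25 is not templated, it was 12.2%, so the U does not by itself assign a read to Mir181b-2.

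Because miR-181d-5p was so frequent and 1 base separates it from miR-181b-5p, the tags 1 base away from its 24-nt form were counted. The 24-nt tag of miR-181d-5p had 35007 reads in the control and 34433 in PD. The tag with U12C, which is miR-181b-5p, had 993 and 1050. Both other changes at position 12 together had 7 and 4 reads. Among the 65 single-base variants at positions 1 to 22 that match no miRNA, the highest had 43 reads in the control and 34 in PD. The highest U-to-C variant elsewhere had 18 and 11. The miR-181b-5p tag thus lay far above the level of single-base variants of miR-181d-5p.

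In the comparison of PD with the control, 6 of the 7 detected miR-181 products were lower in PD per clean read and miR-181d-3p was higher. All 5p arms together had 2650 RPM in the control and 2197 in PD, and the fold change was 0.829 (95% interval 0.819 to 0.840). All 3p arms together had 43.3 and 28.6 RPM, and the fold change was 0.662 (0.594 to 0.736). These falls depended on the denominator, since miRNAs as a whole were lower in PD per clean read: the median fold change of the 499 detected miRNAs was 0.888, and 67.5% were below their control level. Per clean read of 20 to 24 nt, the summed 5p arms had a fold change of 1.00 (0.991 to 1.02). With that denominator 3 of the 7 products were below the control, beside 38.3% of all detected miRNAs. The summed 3p arms stayed below the control with all 5 denominators tried, but not with every length of tag: with tags of 21 nt or more their fold change was 1.11 (0.915 to 1.35).

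With a 2-sided exact binomial test of the reads and Benjamini-Hochberg adjustment over the 499 miRNAs, 6 miR-181 products were lower in PD at an adjusted p under 0.05, as were 36.1% of all detected miRNAs. 1 was higher, as were 9.22%. When a fold change of 1.5 or more was also required, 2 were lower (miR-181a-2-3p and miR-181c-3p) and 1 was higher (miR-181d-3p), beside 11.2% and 3.61% of all detected miRNAs. By fold change alone the same 3 products were past 1.5-fold, beside 13.8% of all detected miRNAs lower and 6.01% higher. The family's median fold change was 0.832, beside 0.888 for all. These tests compare the reads of 2 libraries and not the treatments. In the exact test of edgeR with an assumed biological coefficient of variation of 0.1, miR-181c-3p alone of the 7 passed the adjusted p of 0.05, and with 0.2 none did.

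**Figure D2:**
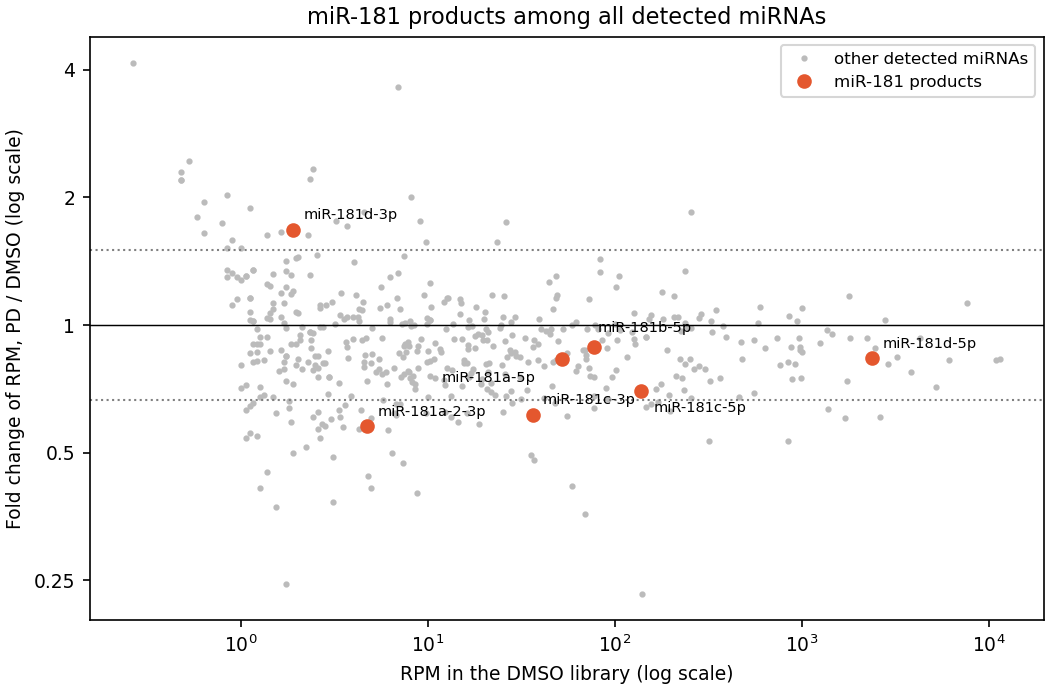
Fold change of RPM, PD over control, against the level in the control for the 499 detected miRNAs, both on log scales. The 7 detected miR-181 products are named, and dotted lines mark 1.5-fold. Only miR-181a-2-3p, miR-181c-3p and miR-181d-3p of the 7 lie outside the dotted lines.

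Among the 5p strands, miR-181c-5p had the lowest fold change, at 0.699 (adjusted p = 6.23e-33 by the exact binomial test, 95% interval 0.659 to 0.741), and 89 of the 499 miRNAs had a lower one. It was below the control with all 5 denominators, with a highest fold change of 0.847 per clean read of 20 to 24 nt. miR-181d-5p had 0.835 (0.824 to 0.846, adjusted p = 3.43e-154 by the exact binomial test), miR-181a-5p 0.832 (0.760 to 0.911, adjusted p = 2.17e-04), and miR-181b-5p 0.887 (0.824 to 0.955, adjusted p = 0.0041). Per clean read of 20 to 24 nt these became 1.01, 1.01 and 1.07, so their direction depended on the denominator. Between 199 and 247 of the 499 miRNAs had a lower fold change than these 3.

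Ratios between the 5p strands need no denominator. The ratio of miR-181c-5p to miR-181d-5p, its neighbour in the Nanos3 intron, was 0.838 times as high in PD as in the control (95% interval 0.789 to 0.889). The ratio of miR-181a-5p to miR-181d-5p changed by a factor of 0.997 (0.909 to 1.09) and that of miR-181b-5p to miR-181d-5p by 1.06 (0.987 to 1.15). Relative to miR-181c-5p, miR-181a-5p was 1.19 (1.07 to 1.33) and miR-181b-5p 1.27 (1.16 to 1.39) times as high in PD as in the control. miR-181c-5p thus fell relative to each of the other 5p strands, while miR-181a-5p, miR-181b-5p and miR-181d-5p kept their proportions within counting error.

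**Figure D3:**
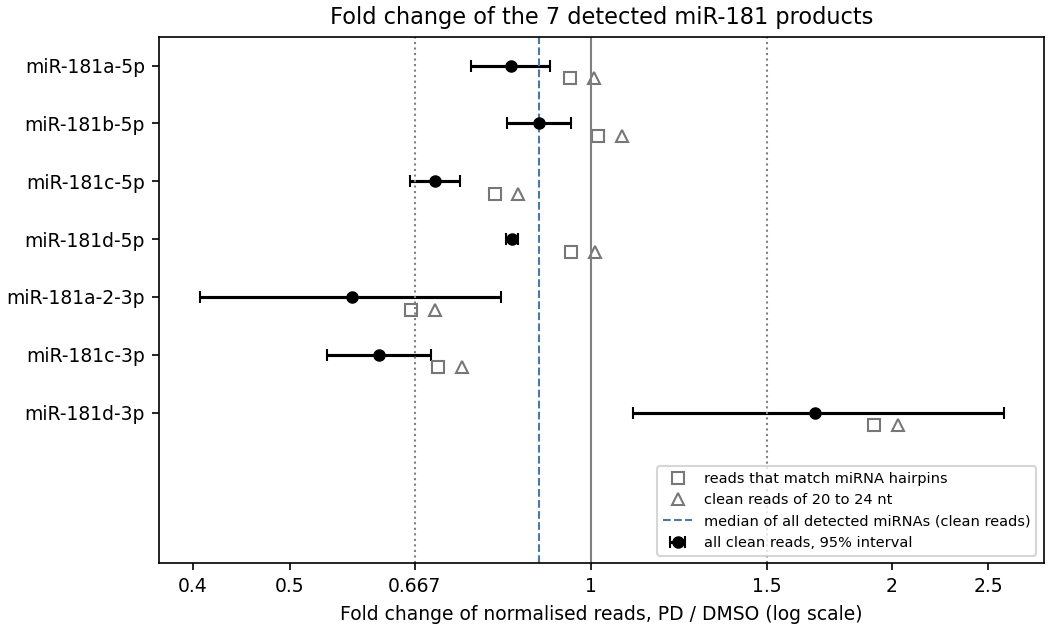
Fold change of the 7 detected miR-181 products, PD over control (log scale). Filled points are per clean read with 95% counting intervals, squares are per read matching a miRNA hairpin and triangles per clean read of 20 to 24 nt. The dashed line is the median of all detected miRNAs, 0.888, and dotted lines mark 1.5-fold. miR-181c-5p, miR-181a-2-3p and miR-181c-3p stay below 1 and miR-181d-3p above 1 with each denominator shown.

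The 3p strands had the larger changes. For miR-181a-2-3p the fold change was 0.577, with a 95% interval of 0.406 to 0.814 and an adjusted p of 0.00351 by the exact binomial test, and 28 of the 499 miRNAs had a lower one. Per clean read of 20 to 24 nt it was 0.699 with an adjusted p of 0.0833. miR-181c-3p had 0.614 (0.545 to 0.692, adjusted p = 1.86e-15 by the exact binomial test). With tags of 21 nt or more only, however, it was higher in PD at 1.40 (1.07 to 1.83), so its fall rested on short tags. miR-181d-3p had 1.68 (1.10 to 2.59, adjusted p = 0.0330 by the exact binomial test), and 478 of the 499 miRNAs had a lower fold change. It was above the control with all 5 denominators (up to 2.03), and its adjusted p became 0.111 when tags with 1 nontemplated 3′ base were counted too. miR-181a-1-3p had a ratio of 2.10 on 3 and 7 reads, with an interval of 0.480 to 12.6. For both miR-181b 3p strands no fold change is given, because neither library exceeded 3 reads.

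The 3p strands of the Nanos3 pair moved apart. In the control there were 19.0 reads of miR-181c-3p for each read of miR-181d-3p, and in PD 6.97, an odds ratio of 0.367 (95% interval 0.233 to 0.568, 2-sided Fisher's exact test, p = 2.06e-06). With tags of 21 nt or more the odds ratio was 0.709 (0.346 to 1.40, p = 0.341 by the same exact test).

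The balance of the arms differed widely between the hairpins. Mir181d gave 1248 reads of its 5p arm for each 3p read in the control and 621 in PD, an odds ratio of 0.498 (95% interval 0.322 to 0.757, 2-sided Fisher's exact test, p = 7.18e-04). Mir181c gave 3.81 and 4.34, an odds ratio of 1.14 (0.996 to 1.30, p = 0.0539 by the same exact test). Both copies of miR-181a together gave 10.8 and 14.3, an odds ratio of 1.33 (0.941 to 1.88, p = 0.0960 by the same exact test). Both copies of miR-181b gave 365 and 719, from 4 and 2 reads of the 3p arms. The arm balance of Mir181d passed 0.05, and those of the other 3 groups did not, but the calls for Mir181c and Mir181d depended on the tags counted. The most frequent tag of each arm was also counted alone, which for miR-181c-3p is an 18-nt form and not the 22-nt RefSeq form. With these tags, the odds ratio of Mir181d was 0.635 (p = 0.124 by the same exact test) and that of Mir181c 1.65 (p = 3.51e-07 by the same exact test). With tags of 21 nt or more, that of Mir181c was 0.510, in the opposite direction (p = 6.08e-07 by the same exact test).

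The most frequent tags of the family were long at the 5p arms and short at miR-181c-3p. They are printed because they are not the RefSeq forms. Capitals again mark bases 2 to 8 of the tag.
miR-181a-5p tag: aACATTCAacgctgtcggtgagttt
miR-181c-5p tag: aACATTCAacctgtcggtgagttt
miR-181d-5p tag: aACATTCAttgttgtcggtgggtt
miR-181c-3p tag: aCCATCGAccgttgagtg
miR-181d-3p tag: cCACCGGGggatgaatgtca
The tag of miR-181a-5p was 25 nt long and had 592 reads in the control and 624 in PD, while the 23-nt RefSeq form had 40 and 26. Those of miR-181c-5p and miR-181d-5p were 24 nt long. Among the 499 detected miRNAs the median length of the most frequent tag was 22 nt, and 41 had one of 24 nt or more. The tag of miR-181c-3p was 18 nt long, the shortest length in the files, with 344 and 184 reads, beside 53 and 76 reads of the 22-nt RefSeq form. An 18-nt form led in 10 of the 499.

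**Figure D4:**
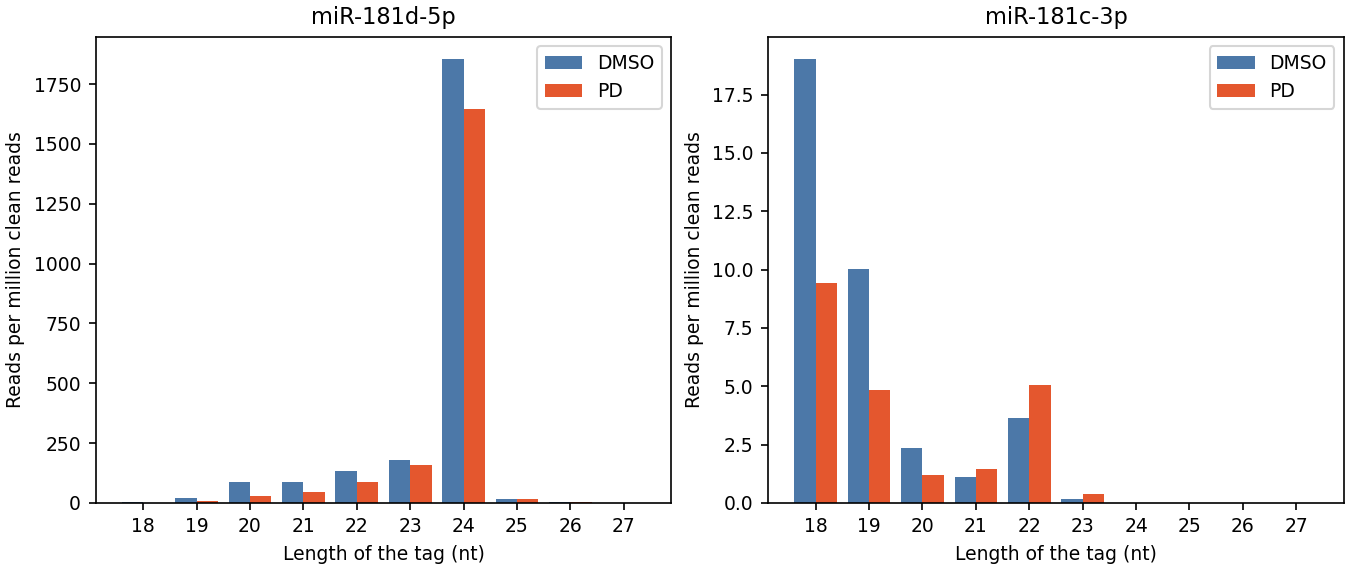
RPM by tag length for miR-181d-5p (left) and miR-181c-3p (right) in the control (DMSO) and PD libraries, 1 library each. miR-181d-5p peaks at 24 nt in both libraries (1855 and 1644 RPM). miR-181c-3p peaks at 18 nt (19.0 and 9.41 RPM), with a smaller peak at 22 nt that is higher in PD (3.66 and 5.06 RPM).

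For the 5p strands and miR-181c-3p, short forms were lower in PD by more than long forms. This split, into tags of 18 to 21 nt and tags of 22 nt or more, was chosen after the values were seen. Short tags of miR-181d-5p went from 3729 to 1687 reads, a fold change per clean read of 0.408 (95% interval 0.385 to 0.432). Its long tags went from 41210 to 39946 reads, a fold change of 0.873 (0.861 to 0.885). For miR-181c-5p the fold change was 0.360 (0.289 to 0.446) for short tags and 0.744 (0.699 to 0.790) for long ones. For miR-181b-5p it was 0.402 (0.286 to 0.559) and 0.931 (0.863 to 1.00), and for miR-181a-5p 0.479 (0.283 to 0.795) and 0.849 (0.774 to 0.932). In miR-181c-3p the short and long forms went in opposite directions, with 613 and 353 short reads (fold change 0.519, 0.454 to 0.592) and 72 and 114 long reads (1.43, 1.05 to 1.94). For miR-181a-2-3p the values were 0.450 (0.261 to 0.759) and 0.712 (0.441 to 1.14). miR-181d-3p was the exception, with 35 and 66 short reads (1.70, 1.11 to 2.64) and 1 long read in each library.

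Tags outside the family also differed by length between the libraries. For all miRNAs outside the family the fold change was 0.687 for short and 0.926 for long tags. All clean reads had 0.833 and 1.08 for these classes, but with another course by single lengths: their fold change was 1.08 at 18 nt, 0.763 at 21 nt and 0.899 at 24 nt. The ratio of the short to the long fold change was 0.467 (95% interval 0.440 to 0.495) for miR-181d-5p, 0.484 (0.385 to 0.605) for miR-181c-5p, 0.432 (0.305 to 0.606) for miR-181b-5p, 0.564 (0.330 to 0.945) for miR-181a-5p and 0.364 (0.259 to 0.508) for miR-181c-3p. For miR-181a-2-3p it was 0.634 (0.305 to 1.31), an interval that includes 1. Over 261 other miRNAs with at least 20 reads in each class, the median ratio was 0.794 with quartiles of 0.574 and 0.956, and 208 were below 1. Of the 6 members with at least 20 reads in each class, 5 were below the lower quartile and miR-181a-2-3p was above it, and 8 to 75 of the 261 were lower than a given member. Whether library preparation or size selection had a part in this shift was not tested. The cut was the same for every miRNA, but the most frequent 5p tags of the family had 24 or 25 nt. Over all detected miRNAs the median was 22 nt. For miRNAs outside the family the fold change was 0.564 at 20 nt and 0.834 at 21 nt. The part of product length in the ranks was not tested.

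**Figure D5:**
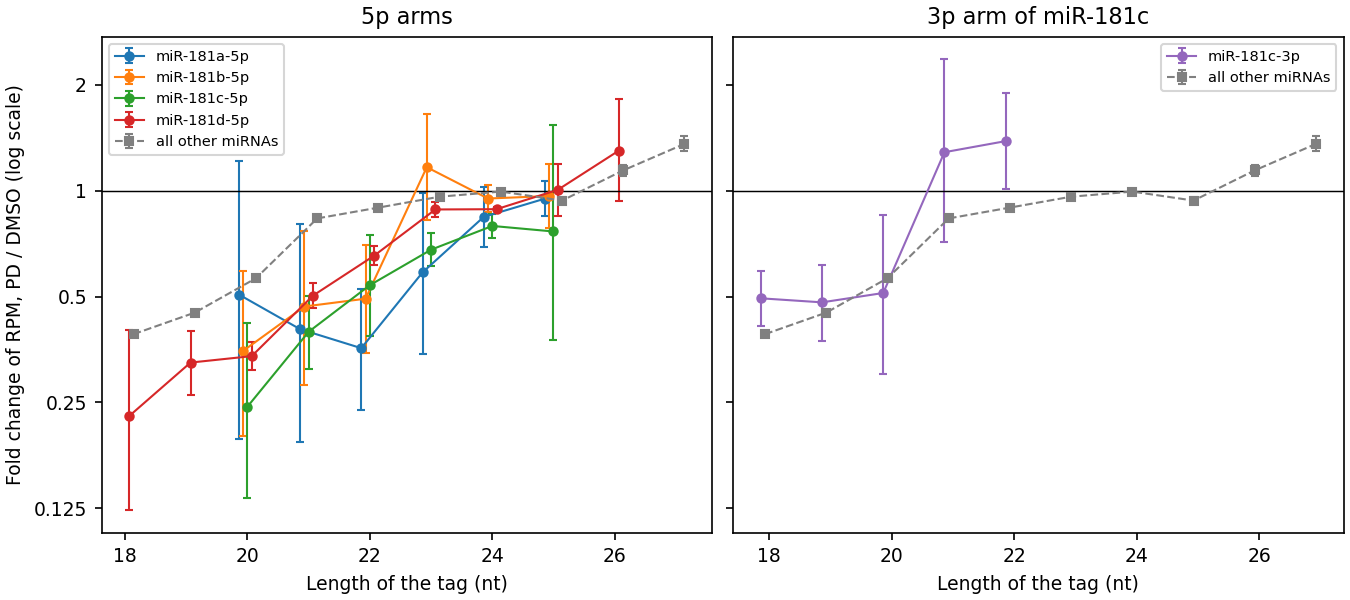
Fold change of RPM, PD over control (log scale), by tag length for the 5p products (left) and miR-181c-3p (right), beside all miRNAs outside the family (grey). Points are drawn where both libraries together had at least 20 reads, and bars are 95% counting intervals. For miR-181d-5p the fold change runs from 0.229 at 18 nt to 0.886 at 24 nt, and for all other miRNAs from 0.391 to 0.995.

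The 5′ ends, which set the seed, were nearly uniform in the 5p strands. Of the reads of miR-181d-5p, 99.6% in the control and 99.5% in PD began at the RefSeq first base, and miR-181b-5p was the lowest of the 5p strands with 97.9% and 97.6%. miR-181c-3p was less uniform: 18.7% (95% Wilson interval 15.9 to 21.8%) of its reads in the control and 21.4% (17.9 to 25.4%) in PD began 1 base earlier. miR-181d-3p had 2 main starts, which give the seeds CCACCGG and CACCGGG. The RefSeq start had 15 reads in the control and 33 in PD, and the start 1 base later had 20 and 32. The share of reads with the RefSeq start was not shown to differ between the libraries for any of the 7 detected products (2-sided Fisher's exact tests, smallest p = 0.242, for miR-181d-5p).

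Nontemplated 3′ bases were frequent on miR-181d-5p. Reads with 1 added A were 7.79% (95% Wilson interval 7.57 to 8.02%) of its reads in the control and 7.81% (7.58 to 8.05%) in PD. Reads with 1 added U were 8.08% (7.86 to 8.32%) and 8.49% (8.25 to 8.74%). Of 124 other miRNAs with at least 1000 reads in both libraries, 15 had a larger share of added A in the control and 21 a larger share of added U. Its neighbour miR-181c-5p had little added A, 0.489% (0.286 to 0.836%) in the control and 1.49% (1.05 to 2.11%) in PD. miR-181b-5p had 5.57% (4.55 to 6.82%) and 6.40% (5.30 to 7.72%), and miR-181a-5p 1.66% (1.04 to 2.64%) and 1.38% (0.806 to 2.34%). On miR-181d-3p, 15 of 52 reads in the control and 14 of 81 in PD ended in an added U.

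The miR-125 family, the other known regulator of Cbx7 named above, had 3 detected products. Of these, 1 was lower and 0 higher in PD at an adjusted p under 0.05, beside 36.1% and 9.22% of all detected miRNAs. With that p, 0 reached 1.5-fold, beside 11.2% lower and 3.61% higher of all detected miRNAs. miR-125a-5p had 41.6 RPM in the control and 33.3 in PD (fold change 0.800, 95% interval 0.721 to 0.887). miR-125b-5p had 5.62 and 6.92 RPM (1.23, 0.953 to 1.60), and miR-125a-3p had 2.33 and 2.24 RPM (0.962, 0.624 to 1.49). The let-7 and miR-98 family is known as a marker of differentiation kept low in embryonic stem cells by Lin28. Here the family summed to 9932 RPM in the control and 9404 in PD, above the 2693 and 2225 of the miR-181 products. Neither library came from differentiated cells, so whether let-7 was kept low was not tested. Of the 9 detected let-7 and miR-98 products, 5 were lower and 3 higher at an adjusted p under 0.05, beside 36.1% and 9.22% of all detected miRNAs. At 1.5-fold with that p there were 0, beside 11.2% lower and 3.61% higher of all detected miRNAs. The most frequent in the control, let-7c-5p, had 3239 and 2722 RPM and a fold change of 0.840 (0.831 to 0.850). The most frequent in PD, let-7f-5p, went the other way, with 2790 and 2873 RPM and a fold change of 1.03 (1.02 to 1.04).

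By the size of the fold change, the miRNAs most like miR-181a-5p among 74 within 2-fold of its control level were miR-665-3p (0.832), miR-200a-3p (0.826), miR-412-5p (0.826), miR-374b-5p (0.840) and miR-106a-5p (0.841). The likeness is over 2 libraries only.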

How the data were processed

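Small RNA of J1 mESCs was sequenced in 1 library for DMSO and 1 for PD, each from RNA pooled from 3 experiments. After quality, adapter and contaminant filtering, with 18 nt as the shortest length, the authors deposited raw counts, 1 for each distinct tag, with no annotation. The labels name a TruSeq RNA kit, while the methods describe gel-purified small RNA. The submitters' processing notes name the build mm9, but the tag lists hold no coordinates, and positions are those of GENCODE M21 on GRCm38.

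Tags were matched to the hairpins of GENCODE M21 with Python 3.11.15, without mismatch. The arms were divided at the loop predicted by ViennaRNA 2.7.2, and the most frequent tag of an arm stood for its mature miRNA. A tag was counted if it overlapped this mature miRNA by at least 16 nt, and identical mature miRNAs of several hairpins were 1 product. Of the 115 family tags, 114 entered a product, 1 loop tag of 0 and 1 reads did not, and 0 matched hairpins outside the family. RPM used all clean reads. RefSeq mature sequences were found for all 10 products.

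Folds have exact (Clopper-Pearson) 95% intervals and 2-sided exact binomial p-values against the PD share of clean reads, adjusted over 499 detected products. Arm and copy balances used Fisher's exact test with SciPy 1.17.1. Quasi-likelihood tests need replicates. On counts simulated for this comparison with Poisson counting error only, the binomial test recovered 112 of 112 products changed 2-fold at 10 RPM or more. It called 4 of 300 unchanged ones. The simulation held no variation between cultures or libraries, so it cannot show how often such variation gives a call. TMM and the exact test used edgeR 4.0.16, and size factors DESeq2 1.42.0. All products of the 6 hairpins were named, and of other miRNAs the 5 nearest in fold to miR-181a-5p within 2-fold of its level and at most 3 each of the miR-125 and let-7 families. The members and lists were chosen with earlier results of these data known.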

Additional observations from a re-analysis of the deposited data

How the results depend on the processing

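No paired analysis was possible because each treatment had 1 library. By fold and adjusted p together, 11.2% of all detected miRNAs were lower and 3.61% higher, and 36.1% were lower by adjusted p alone. The counts of miR-181 products lower by fold and adjusted p, higher by both, and lower by adjusted p alone were 2, 1 and 6. The first was 1 per read matching a hairpin, with DESeq2 size factors, with tags identical to the mature miRNA and with tags of 21 nt or more, and 0 per clean read of 20 to 24 nt, with a 2-fold threshold and with tags of 22 nt or more. The second was 0 with identical tags, with tags starting at the first base of the mature miRNA, with tags of 21 or of 22 nt or more, with nontemplated tags added, without the detection filter and with the 2-fold threshold. The third was 2 per clean read of 20 to 24 nt, beside 13.4% of all detected miRNAs. It was 4 per read matching a hairpin (beside 18.4%), 4 with DESeq2 size factors (beside 21%) and 5 with TMM (beside 25.9%). With tags of 21 nt or more it was 5, and with identical tags and with tags of 22 nt or more it was 3.

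Per clean read of 20 to 24 nt the fold of all 5p arms was 1.00412 and of all arms 1.00086, and miR-181a-5p, miR-181b-5p and miR-181d-5p reached 1.01, 1.07 and 1.01. Per read matching a hairpin miR-181b-5p had 1.02. With tags of 21 nt or more the summed 3p arms had 1.11 and miR-181c-3p 1.40, and with 22 nt or more 1.15 and 1.43. miR-181c-3p had 1.29 with the RefSeq form alone, and miR-181d-3p 0.901 with tags of 22 nt or more (1 read in each library). The arm balance of Mir181c had an odds ratio of 1.65 with identical tags, 0.510 with 21 nt or more and 0.521 with 22 nt or more. That of Mir181d was 0.635 with identical tags and 0.969 with 22 nt or more. The ratio of miR-181c-3p to miR-181d-3p had 0.709 with 21 nt or more and 1.58 with 22 nt or more. The length threshold of 22 nt and the RefSeq form alone were chosen after seeing the data. Copy-reaching 5p tags of miR-181b gave no odds ratio, having 0 reads in 1 cell. Where the fall or rise was lost, the cause was not tested beyond the tags or reads that the alternative itself leaves out.

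Denominators shifted the median log2 fold of all detected miRNAs from -0.17 per clean read to 0.03 per read matching a hairpin and 0.11 per clean read of 20 to 24 nt. At the lowest depths only wide intervals were possible (0.480 to 12.6 for miR-181a-1-3p), and 1 library for each treatment limits all statements to these libraries.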
